A study of Mus musculus with 30 samples.

Results

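The genes described here are 10 nuclear genes for the synthesis of serine, asparagine and proline and for mitochondrial one-carbon metabolism, namely Asns, Phgdh, Psat1, Psph, Shmt2, Mthfd2, Mthfd1l, Aldh1l2, Pycr1 and Aldh18a1. They were chosen by name, as the enzymes of these routes, and 8 of the 10 were measured among the 17097 genes of the arrays. Mthfd2 was represented only by 2 probe sets assigned to both Gsn and Mthfd2, and Pycr1 was not analysed here. The groups were ClpP knockout mice and their wild-type littermates, both of the C57BL/6 strain, and the tissues were testis, liver, skeletal muscle, brain and heart. ClpP is the proteolytic subunit of a protease of the mitochondrial matrix, and the knockout was present in every tissue sampled. Each of the 10 groups had 3 arrays, 30 in all, with 1 deposited log2 expression value per probe set and array. Age and sex were not given in the labels, nor whether the 3 arrays of a group came from separate animals or whether 1 animal gave several tissues, so p-values measure the spread between these samples, which may be technical.

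Serine is made from an intermediate of glycolysis by Phgdh, Psat1 and Psph in turn. In mitochondria Shmt2 splits serine into glycine and a one-carbon unit bound to folate, which Mthfd2 oxidises, Mthfd1l releases as formate and Aldh1l2 can burn to carbon dioxide while making NADPH. Asns makes asparagine from aspartate and glutamine, and Aldh18a1 and Pycr1 catalyse the first and last steps of proline synthesis from glutamate. Many of these genes are known targets of ATF4, the transcription factor of the integrated stress response, which in heart and skeletal muscle with impaired mitochondria is known to raise them.

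Within each tissue the Clpp signal of the knockout arrays lay below that of the wild-type arrays, with knockout means of 3.11 to 3.65 and wild-type means of 6.38 to 9.18. Array medians over all probe sets lay between 3.24 and 3.38, so values near 3 are at the level of the median probe set. The median gene, read from its brightest probe set, lies higher. Several arrays held transcripts of another tissue. Adipoq, the adipocyte hormone adiponectin, stood at 8.03 and 9.28 on knockout heart replicates 2 and 3 and at 2.57 on knockout replicate 1, against 2.71 to 3.29 on the wild-type heart arrays. The mean of 8 sperm genes was 5.96 on wild-type muscle replicate 1, against 2.74 to 2.91 on the other muscle arrays. The mean of 3 epididymis genes was 10.96 on wild-type testis replicate 3, against 2.89 and 3.0 on the other wild-type testis arrays. For the tissue concerned, the main counts and some of the changes are also given without these arrays. The defining markers of each labelled tissue were present, with cardiomyocyte genes averaging 11.96 to 12.67 on knockout and 12.04 to 12.31 on wild-type heart arrays. In bulk tissue, fewer cells of a type and less RNA per cell cannot be told apart.

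In heart, loss of ClpP was accompanied by higher transcript levels of Asns, Phgdh, Aldh1l2 and Aldh18a1, by 2.25-fold to 18.3-fold. These 4 of the 8 measured genes rose and none fell at a Benjamini-Hochberg adjusted p below 0.05 from limma over all genes, the threshold used throughout. Among all 17097 genes 2.18% were called in heart, 1.11% higher and 1.07% lower. The median log2 change of the 8 genes was 1.24, against -0.01 for all genes, and no change of the 8 was below 0. The same 4 genes were those whose 3 knockout arrays all lay above the 3 wild-type arrays, and 19.3% of all genes were separated in this way in heart in either direction. The 4 genes that rose come from 4 routes, asparagine synthesis, serine synthesis, the mitochondrial folate pathway and proline synthesis.

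**Figure D1:**
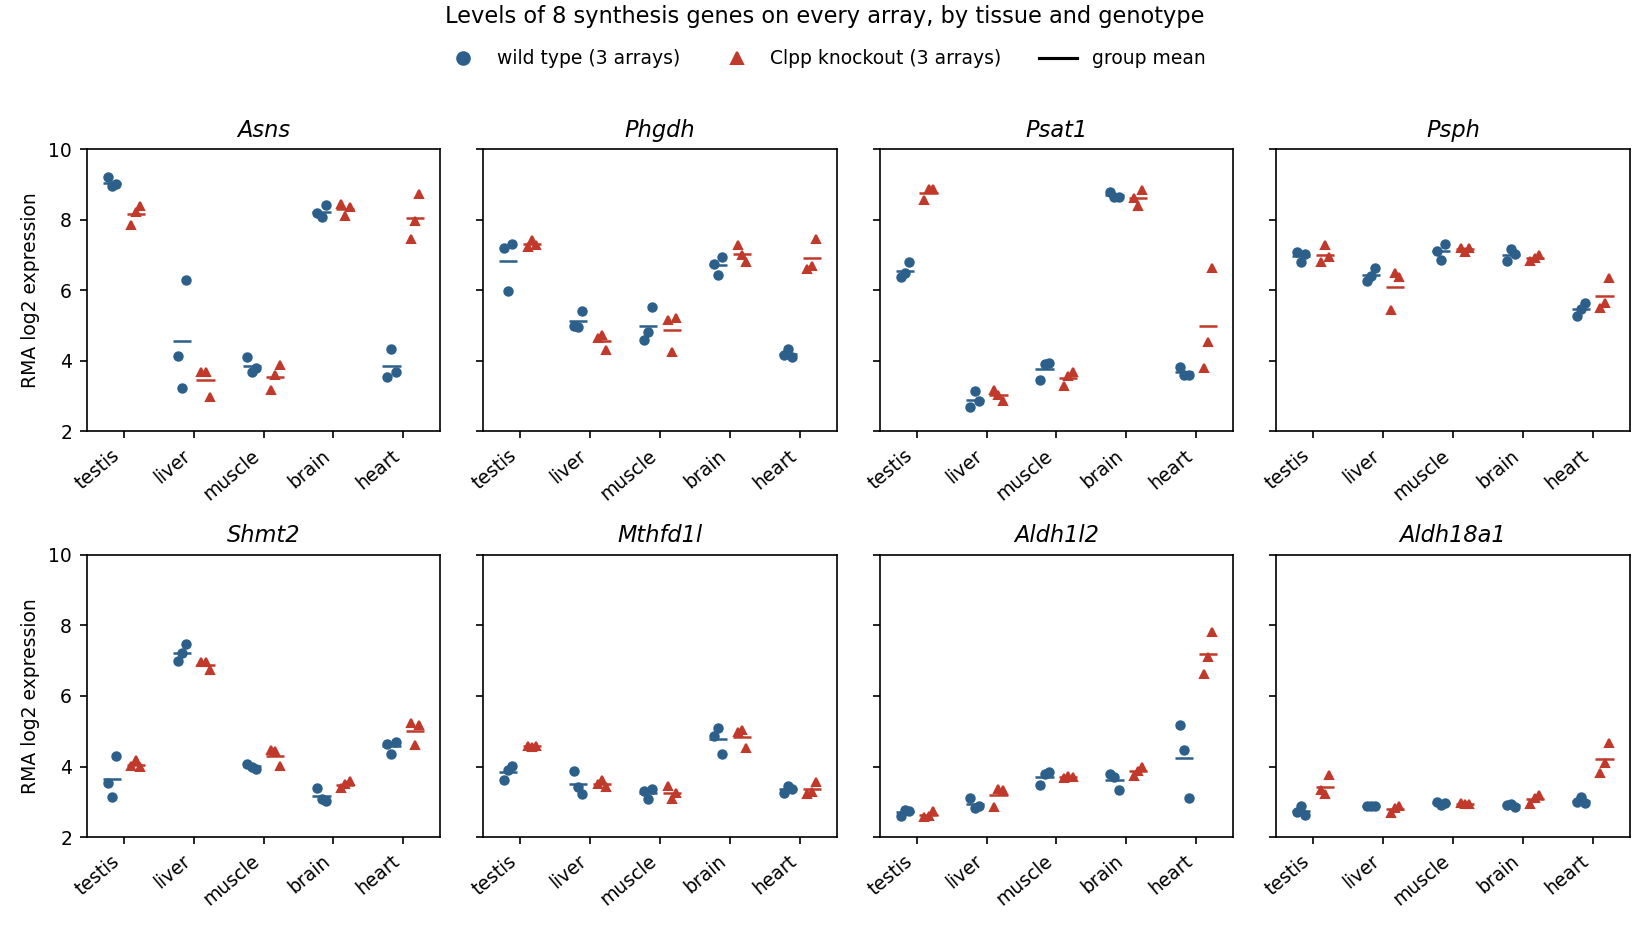
Log2 expression (vertical axes) of the 8 measured genes on each of the 30 arrays by tissue, with wild-type arrays as circles, knockout arrays as triangles and group means as lines. In heart the 3 knockout points of Asns, Phgdh, Aldh1l2 and Aldh18a1 all lie above the 3 wild-type points, whereas no such separation is seen for any gene in muscle or brain.

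Asns, the asparagine synthetase, had log2 levels of 7.46, 7.97 and 8.72 on the knockout heart arrays and of 3.54, 4.34 and 3.68 on the wild-type heart arrays. All 3 knockout arrays were thus far above all 3 wild-type arrays, and the lowest knockout value exceeded the highest wild-type value by several times the spread within either group. The log2 change was 4.19 ± 0.45 (SE, n = 3 per genotype), or 18.3-fold, with an adjusted p of 1.309e-06. The knockout heart mean on this probe set was 8.05 ± 0.64 (SD), close to the wild-type brain mean of 8.23 ± 0.17. The wild-type heart mean was 3.85 ± 0.42, not far above the array medians, where a fold change also depends on background signal.

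Phgdh, the first enzyme of serine synthesis, had levels of 6.61, 6.69 and 7.46 on the knockout heart arrays and of 4.17, 4.34 and 4.12 on the wild-type ones. The groups did not overlap. Phgdh rose by 2.71 ± 0.30 on the log2 scale, or 6.55-fold (adjusted p = 2.191e-06). A second probe set of Phgdh differed by 1.84 in the same direction.

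The later enzymes of serine synthesis did not pass the test in heart. Psat1, the phosphoserine aminotransferase, had levels of 3.81, 4.53 and 6.65 on knockout and of 3.83, 3.61 and 3.59 on wild-type arrays. Knockout replicate 3 was far above and replicate 2 above the wild-type arrays, and knockout replicate 1 lay within the wild-type range. The difference was 1.32 ± 0.38 with an adjusted p of 0.06784, and it rested on single arrays, being 1.91 without knockout replicate 1 (adjusted p = 0.0005918) and 0.49 without knockout replicate 3 (adjusted p = 0.299). Psph, the phosphatase that releases serine, had levels of 5.51 to 6.35 on knockout and 5.28 to 5.65 on wild-type heart arrays, which overlapped (difference 0.37, adjusted p = 0.487).

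Among the mitochondrial one-carbon enzymes, Aldh1l2 rose and Shmt2 and Mthfd1l did not pass the test. Aldh1l2, the mitochondrial dehydrogenase of formyl-tetrahydrofolate, had levels of 6.63, 7.12 and 7.82 on knockout and of 5.18, 4.47 and 3.11 on wild-type heart arrays. The wild-type arrays were spread widely (SD 1.05), yet the highest of them stayed below the lowest knockout array. Aldh1l2 rose by 2.93 ± 0.31, or 7.64-fold (adjusted p = 1.309e-06). With heart fitted on its own 6 arrays, so that this wide spread was not pooled with other tissues, the adjusted p was 0.06818. Shmt2, the mitochondrial serine hydroxymethyltransferase, had 5.23, 4.61 and 5.18 on knockout and 4.65, 4.35 and 4.70 on wild-type arrays. The Shmt2 groups overlapped through knockout replicate 2 (difference 0.44 ± 0.21, adjusted p = 0.3503). Mthfd1l, which makes formate in mitochondria, lay between 3.24 and 3.56 on all 6 heart arrays, and its difference was 0.01 ± 0.18 (adjusted p = 0.9983).

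Both probe sets that cover Mthfd2, the mitochondrial methylenetetrahydrofolate dehydrogenase, were also assigned to Gsn, so they were kept out of the tests. The first read 7.82, 7.99 and 8.69 on knockout and 3.97, 3.92 and 3.58 on wild-type heart arrays, a difference of 4.34. The second read 8.29, 8.50 and 9.31 on knockout and 3.69, 3.43 and 3.57 on wild-type heart arrays, a difference of 5.14. All knockout arrays were far above all wild-type arrays on both. The probe sets assigned to Gsn alone, an actin-severing protein, differed in heart by 0.004 to 0.47. The brightest of them read 11.8, 11.4 and 11.3 on the wild-type heart arrays, far above the shared probe sets there. The dimmest read 2.50, 2.70 and 2.44 on the same arrays. In muscle the shared probe sets differed by 0.97 and 1.40. The muscle groups overlapped on the first, with knockout replicate 1 at 4.83 and wild-type replicate 1 at 4.91. In testis the shared probe sets differed by 0.95 and 1.60, and those of Gsn alone by -0.2 to 1.55. No test was run on the shared probe sets, and which of the 2 genes they report was not tested.

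Aldh18a1, the pyrroline-carboxylate synthase that starts proline synthesis, had levels of 3.81, 4.11 and 4.68 on knockout and of 3.0, 3.13 and 2.97 on wild-type heart arrays. The groups did not overlap, but the wild-type values were below the array medians, where a fold change also depends on background signal. Aldh18a1 rose by 1.17 ± 0.15, or 2.25-fold (adjusted p = 2.095e-05), and its second probe set differed by 0.74. Fitted on the 6 heart arrays alone its adjusted p was 0.06868.

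The 250 bases before the transcription start are shown for 3 of the 4 genes that rose in heart, because they let the sequence class through which ATF4 acts be set beside the measured rises. The sequences are RefSeq promoter windows of the GRCm38.p6 assembly, printed 5′ to 3′ on the strand of the gene, with any match to TGATGNAA in capitals. The windows are chr6:7693210-7693459 for Asns, chr3:98339970-98340219 for Phgdh and chr19:40588464-40588713 for Aldh18a1, all on the minus strand.
Asns: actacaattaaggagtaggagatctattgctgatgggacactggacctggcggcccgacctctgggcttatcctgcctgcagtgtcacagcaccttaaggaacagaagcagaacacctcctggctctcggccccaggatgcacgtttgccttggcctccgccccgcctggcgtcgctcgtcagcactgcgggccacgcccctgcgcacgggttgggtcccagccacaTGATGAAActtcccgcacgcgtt
Phgdh: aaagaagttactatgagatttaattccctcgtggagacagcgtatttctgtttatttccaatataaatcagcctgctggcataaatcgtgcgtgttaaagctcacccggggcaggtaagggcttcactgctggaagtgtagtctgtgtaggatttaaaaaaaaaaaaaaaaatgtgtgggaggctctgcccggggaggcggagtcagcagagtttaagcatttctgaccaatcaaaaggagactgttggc
Aldh18a1: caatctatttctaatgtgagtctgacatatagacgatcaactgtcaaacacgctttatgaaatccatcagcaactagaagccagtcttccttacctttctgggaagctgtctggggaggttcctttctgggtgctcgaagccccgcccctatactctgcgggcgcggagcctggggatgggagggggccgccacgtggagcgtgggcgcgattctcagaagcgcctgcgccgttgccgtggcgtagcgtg
TGATGNAA, the core of the C/EBP-ATF composite element, was searched on both strands in the 250 bases before each start, and no other motif was searched. Asns held 1 match, TGATGAAA, 23 to 16 bases before the start. Phgdh and Aldh18a1 held none in these windows. Of the 9 genes of the set with a window, 2 held a match, and the other was Pycr1 with TGATGCAA 103 to 96 bases before its start, in chr11:120643749-120643998. Among all genes with a window 1056 of 27025 held the motif, or 3.91%, and among all windows 1134 of 32851, or 3.45%. A match describes these letters only.

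Among the heart arrays, adipocyte transcripts were high on 2 of the 3 knockout arrays. Of 5 adipocyte markers listed 3 were measured, and their mean level was 2.94, 6.38 and 7.27 on knockout replicates 1, 2 and 3 and 3.18 to 3.28 on the wild-type arrays. Ucp1, the uncoupling protein of brown fat, was at 2.78, 6.89 and 8.07 on the knockout arrays, while Lep stayed at 2.27 to 2.48 on all 6 arrays. On knockout replicate 1 the adipocyte markers were no higher than on the wild-type arrays, and the 4 genes were high there too, with Asns at 7.46, Phgdh at 6.61, Aldh1l2 at 6.63 and Aldh18a1 at 3.81. Among the knockout heart arrays, replicate 3, with the highest adipocyte mean, had the highest value for 7 of the 8 genes. The exception was Shmt2, highest on replicate 1. Adipocyte signal was not confined to heart. The same 3 markers averaged 3.46 to 6.97 on knockout and 5.23 to 7.02 on wild-type muscle arrays. In testis they averaged 4.46 to 5.41 on knockout and 4.51 to 5.09 on wild-type arrays.

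**Figure D2:**
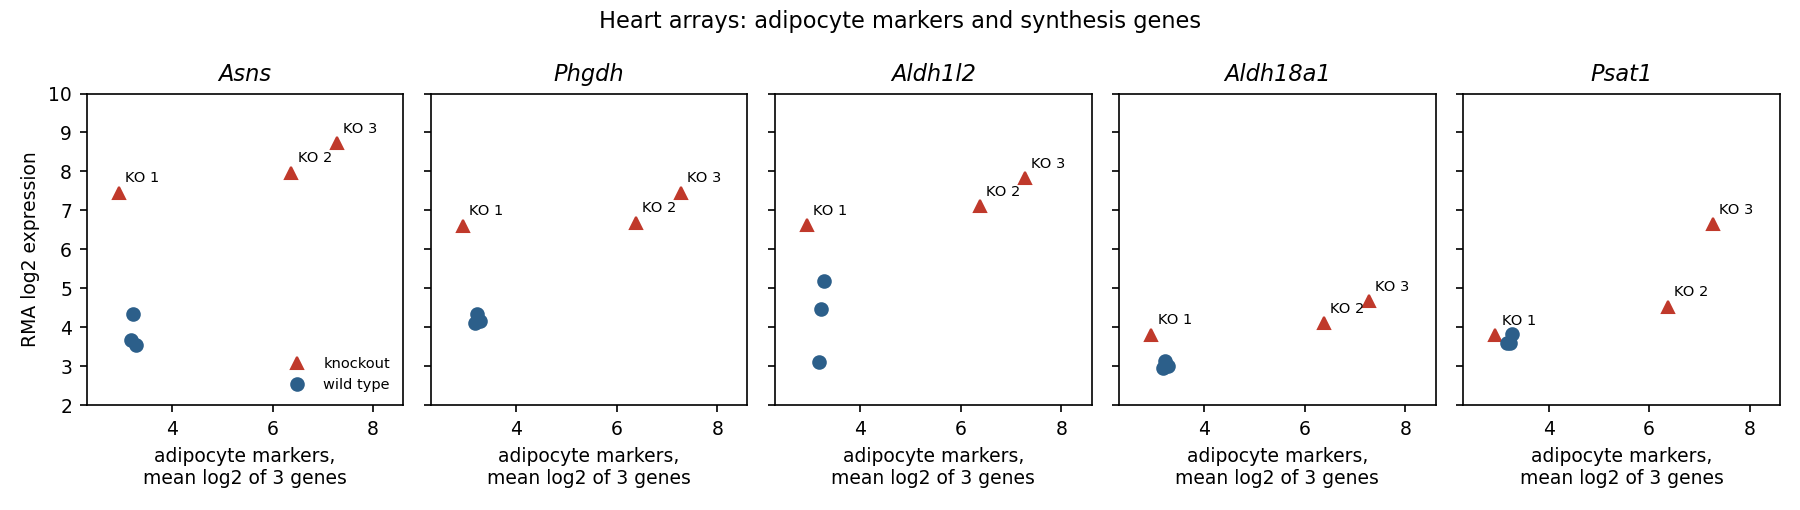
Log2 levels of Asns, Phgdh, Aldh1l2, Aldh18a1 and Psat1 (vertical axes) against the mean log2 level of 3 adipocyte markers (horizontal axes) on the 6 heart arrays, 1 point per array, with knockout arrays as triangles and wild-type arrays as circles. Knockout replicate 1, with an adipocyte mean of 2.94 against 3.18 to 3.28 on the wild-type arrays, still has Asns at 7.46 against a wild-type maximum of 4.34.

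With knockout heart replicates 2 and 3 both left out, which leaves 1 knockout array whose spread is assumed to equal that of the other groups, the same 4 genes passed the test. Asns then changed by 3.60 ± 0.62 (adjusted p = 0.003295), Phgdh by 2.40 (adjusted p = 0.003077), Aldh1l2 by 2.37 (adjusted p = 0.003305) and Aldh18a1 by 0.78 (adjusted p = 0.01228). The difference of Psat1 fell to 0.13 and that of Psph to 0.05, while Shmt2 differed by 0.66 and Mthfd1l by -0.12. Car3, an abundant adipocyte enzyme, was at 3.61, 9.41 and 10.9 on the knockout and 3.13 to 5.0 on the wild-type heart arrays, and the 2 knockout arrays above the wild-type range of Psat1 were the same ones. Car3 is 1 of 8 further adipocyte genes measured, whose mean was 5.32, 6.47 and 6.88 on the knockout and 5.42 to 5.70 on the wild-type arrays. Fabp4, at 11.3, 11.3 and 11.5 on the knockout arrays, was not above its wild-type values on both replicates 2 and 3, nor were Pck1, Elovl3 and Lipe. The part of adipocyte RNA in the size of the heart changes beyond this comparison was not tested. Macrophage genes averaged 6.64 to 7.40 on knockout and 6.26 to 6.53 on wild-type heart arrays, with 0 of 8 called, and their part was not tested either.

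The rises in heart differed from the changes in the other non-reproductive tissues. A moderated F test of the knockout effect among liver, muscle, brain and heart was called for 4 of the 8 genes, against 1.66% of all genes, with adjusted p of 5.147e-05 for Asns, 0.0001333 for Phgdh, 0.0004032 for Aldh1l2 and 0.001879 for Aldh18a1. The heart effect exceeded the mean effect of liver, muscle and brain by 4.64 for Asns, 2.83 for Phgdh, 2.76 for Aldh1l2 and 1.14 for Aldh18a1 on the log2 scale. These 4 of 8 were called, against 0.79% of all genes in either direction and 0.398% higher. For Psat1 the same difference was 1.39 with an adjusted p of 0.1735. With knockout heart replicates 2 and 3 left out, which leaves 1 knockout heart array, the F test among the 4 tissues called fewer of the 8 genes. The share of all genes called by it in that setting is not given here.

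**Figure D3:**
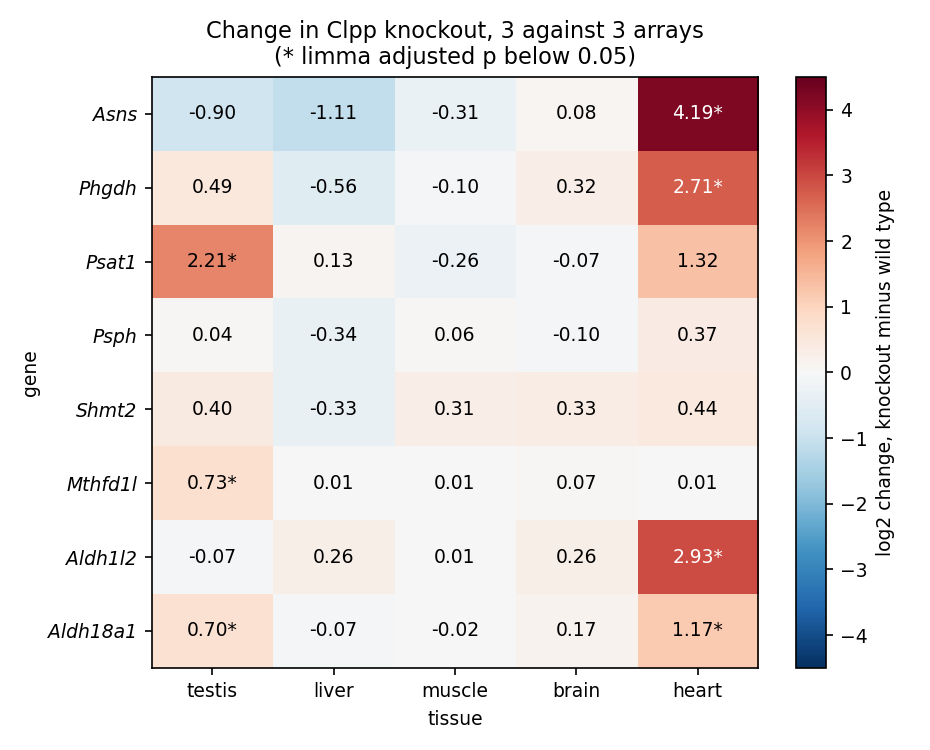
Log2 change between knockout and wild type for each of the 8 genes in each of the 5 tissues, as a grid with genes in rows and tissues in columns, coloured from blue for negative to red for positive; an asterisk marks an adjusted p below 0.05 from limma with 3 arrays per genotype. The large positive values are those of Asns, Phgdh and Aldh1l2 in heart and of Psat1 in testis at 2.21, while the values in muscle and brain lie between -0.31 and 0.33.

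In skeletal muscle and brain no gene of the 8 was called, against 1.54% of all genes in muscle and 0.415% in brain. The log2 differences ranged from -0.31 to 0.31 in muscle and from -0.10 to 0.33 in brain, and in neither tissue did the 3 knockout arrays of any gene lie all above or all below the wild-type arrays, which 19.4% and 15.8% of all genes did. Asns in muscle had 3.17, 3.60 and 3.90 on knockout and 4.12, 3.68 and 3.79 on wild-type arrays, so the groups overlapped. In brain Asns lay between 8.09 and 8.44 on all 6 arrays. The standard error of 0.45 for Asns, pooled over the 10 groups, means that only a change well above that size could have been called in these tissues.

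In liver also 0 of the 8 genes were called, against 2.42% of all genes. Phgdh had 4.64, 4.73 and 4.31 on knockout and 4.98, 4.96 and 5.41 on wild-type liver arrays, and Shmt2 had 6.97, 6.96 and 6.75 against 6.99, 7.20 and 7.48. All knockout arrays of these 2 genes lay below all wild-type arrays, and 16.7% of all genes showed such a separation in one direction or the other. The differences were -0.56 (adjusted p = 0.452) and -0.33 (adjusted p = 0.569) on the probe sets used. The other probe set of Phgdh differed by -0.29 in liver, and those of Shmt2 by 0.059 and -0.035. Asns had 3.69, 3.68 and 2.98 on knockout and 4.14, 3.24 and 6.30 on wild-type liver arrays, with 1 wild-type array, replicate 3, far above the others. Its difference of -1.11 (adjusted p = 0.2434) became -0.24 without that array (adjusted p = 0.9229) and -1.77 without wild-type replicate 2 (adjusted p = 0.01868). Pancreatic acinar cell genes averaged 3.84 to 4.27 on wild-type and 3.77 to 3.85 on knockout liver arrays. The part of pancreatic RNA in the Asns values of liver was not tested.

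The liver effect lay below the mean effect of muscle, brain and heart by a called amount for 2 of the 8 genes, -2.43 for Asns (adjusted p = 0.01425) and -1.54 for Phgdh (adjusted p = 0.02253), against 1.18% of all genes in either direction and 0.76% lower. The mean it was set against includes the heart rises. Without knockout liver replicate 3 the count was 0, and without wild-type liver replicate 3 it was 1. The effect in muscle and the effect in brain, each set against the mean of the other 3 tissues, were called for 0 of the 8 genes, against 0.462% and 0.0351% of all genes.

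Over the mean of liver, muscle, brain and heart, 3 of the 8 genes rose, against 4.02% of all genes called and 1.47% higher, with Aldh1l2 at 0.86, Phgdh at 0.59 and Aldh18a1 at 0.31 on the log2 scale. This mean carries the heart changes, and with knockout heart replicates 2 and 3 left out fewer of the 8 genes were called. Asns had a mean difference of 0.71 that did not pass the test (adjusted p = 0.072). It was 0.93 without wild-type liver replicate 3 (adjusted p = 0.0003713), 0.79 without knockout heart replicate 1 (adjusted p = 0.04581) and 0.55 without wild-type liver replicate 2 (adjusted p = 0.1066). The Aldh18a1 call ended with the replicate number as a block (0.31, adjusted p = 0.05287), and the Phgdh call with its other probe set (0.45, adjusted p = 0.08131).

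In testis 3 of the 8 genes rose, Psat1, Mthfd1l and Aldh18a1, and none fell. Among all genes 56.2% were called in testis, 32.8% of all genes being higher and 23.4% lower, so the share of these 8 genes was not above the background. The median log2 difference of the 8 genes was 0.44 on the probe sets used, against 0.015 for all genes. The testis of the knockout had lost most of the RNA of late germ cells, with 8 sperm genes averaging 7.10 to 8.12 on knockout and 11.86 to 12.30 on wild-type arrays, while 8 Sertoli cell genes averaged 9.02 to 9.25 and 7.23 to 7.52. The difference between 3' and 5' probe sets of the control transcripts, a sign of RNA quality, also separated the genotypes in testis, at 0.51 to 0.57 on knockout and 0.86 to 1.17 on wild-type arrays for GAPDH and at 1.14 to 1.30 and 1.40 to 2.03 for actin, in log2 units. In heart these ranges overlapped. In liver they were apart for actin, at 1.79 to 2.39 on knockout and 1.67 to 1.78 on wild-type arrays, and overlapped for GAPDH. The part of the cell markers and of RNA quality in the testis differences was not tested, nor that of RNA quality in the liver differences.

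Psat1 in testis had levels of 8.57, 8.87 and 8.86 on knockout and of 6.37, 6.49 and 6.81 on wild-type arrays. The groups were far apart, and Psat1 rose by 2.21 ± 0.38 (adjusted p = 1.563e-05). Mthfd1l had 4.60, 4.55 and 4.58 on knockout and 3.62, 3.89 and 4.02 on wild-type arrays and rose by 0.73 ± 0.18 (adjusted p = 0.0008549). Aldh18a1 had 3.33, 3.22 and 3.76 against 2.71, 2.88 and 2.62 and rose by 0.70 ± 0.15 (adjusted p = 0.0002326). For these 3 genes no knockout array overlapped the wild-type arrays, a pattern that 63.5% of all genes showed in testis in either direction. The second probe set of Aldh18a1 differed by 0.23 and did not pass the test (adjusted p = 0.2267). Without wild-type replicate 3, which held epididymis transcripts, Psat1 changed by 2.33, Mthfd1l by 0.82 and Aldh18a1 by 0.64, and each passed the test.

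Asns went the other way in testis, with 7.85, 8.24 and 8.40 on knockout and 9.22, 8.95 and 9.0 on wild-type arrays. All knockout arrays lay below all wild-type arrays, and the difference of -0.90 ± 0.45 did not pass the test (adjusted p = 0.09412). The standard error is pooled over tissues and includes the spread of Asns in wild-type liver. Fitted on the testis arrays alone the adjusted p was 0.002349, without wild-type liver replicate 3 it was 0.007943, and without wild-type testis replicate 3 the difference was -0.92 (adjusted p = 0.1351). For Phgdh the 2 probe sets disagreed in sign in testis, at 0.49 on the one used (adjusted p = 0.182) and at -0.84 on the other, so no direction is given. Without wild-type testis replicate 3 the probe set used gave 0.73 (adjusted p = 0.06018). Shmt2 differed by 0.40 in testis (adjusted p = 0.1085), by 0.72 with wild-type replicate 3 left out (adjusted p = 0.001533) and by 0.13 with wild-type replicate 2 left out (adjusted p = 0.6363). Its other probe sets differed by 0.14 and -0.005 in testis. Psph and Aldh1l2 differed by 0.04 and -0.07.

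The testis effect differed from the mean effect of the 4 other tissues for 4 of the 8 genes, against 55.5% of all genes. Psat1 and Mthfd1l were higher by 1.93 (adjusted p = 0.0003384) and 0.71 (adjusted p = 0.003319), while the difference was -1.61 for Asns (adjusted p = 0.007876) and -0.93 for Aldh1l2 (adjusted p = 0.0262). The mean of the 4 other tissues includes the heart rises of Asns and Aldh1l2. The Aldh18a1 difference was 0.39 (adjusted p = 0.052). Without wild-type testis replicate 3 the count was again 4, with 3 higher and 1 lower.

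In wild-type mice the 8 genes had different levels in different tissues. A moderated F test among the 5 wild-type tissues was called for 7 of the 8, against 87.9% of all genes, and the exception was Aldh18a1 (adjusted p = 0.3887), whose wild-type means lay between 2.74 and 3.03. Of the 32 neighbouring pairs in the order of the tissues 11 differed, read from these same values, and 10 differed without wild-type testis replicate 3 or without wild-type muscle replicate 1. The share of neighbouring pairs over all genes was not computed. The shares that follow are of fixed pairs of tissues, near or far in the order of a gene, and are not a background for this count. Among all genes, testis differed from liver for 65.6%, from muscle for 64.5%, from brain for 69.1% and from heart for 65.4%. Liver differed from muscle for 49.8%, from brain for 60.7% and from heart for 48%, muscle from brain for 59.4% and from heart for 35.9%, and brain from heart for 58.3%. Each order is within 1 probe set.

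Asns was highest in testis (9.06) and brain (8.23), which did not differ from each other, and was at 4.56 in liver, 3.86 in muscle and 3.85 in heart, where the neighbours did not differ. Brain exceeded liver by 3.67 ± 0.45 (adjusted p = 6.975e-08). Phgdh followed the same grouping, at 6.83 in testis and 6.71 in brain, then 5.12 in liver and 4.98 in muscle, with heart the lowest at 4.21 and differing from muscle. Heart, where these 2 genes rose in the knockout, thus had the lowest or joint lowest wild-type levels of both on the probe sets used. On the other Phgdh probe set the wild-type means were 2.54 in liver, 2.632 in heart and 2.685 in muscle. Psat1 was highest in brain at 8.69, then testis at 6.56, and lay at 3.77 in muscle, 3.68 in heart and 2.90 in liver, where neighbours did not differ. Psph lay at 7.11 in muscle, 7.02 in brain and 6.97 in testis, where neighbours did not differ, with liver at 6.44 and heart at 5.46 each below its neighbour.

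The mitochondrial one-carbon genes followed other orders. Shmt2 was highest in liver at 7.22, then heart at 4.57, followed by muscle at 4.0 and testis at 3.66, which did not differ, and brain at 3.15. The size of the liver excess depended on the probe set. On the other Shmt2 probe sets liver and heart were at 5.279 and 4.095, and at 5.036 and 4.819. Mthfd1l was highest in brain at 4.78 and lay at 3.25 to 3.84 in the other tissues, with no neighbour difference among them. Aldh1l2 had the highest mean in heart at 4.25, followed by muscle at 3.70, brain at 3.62, liver at 2.94 and testis at 2.70, and no neighbouring pair differed.

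Other genes of folate, glycine, serine, proline and aspartate metabolism did not pass the test in heart, where 2.18% of all genes were called, so that counts of 0 in short lists do not set them apart. In heart 0 of 14 cytosolic and folate-cycle one-carbon genes, 0 of 10 glycine cleavage and methyl group genes, 0 of 8 genes of serine use, 0 of 7 other proline and ornithine genes and 0 of 8 other asparagine, aspartate and glutamine genes were called. Their median log2 changes were -0.01, 0.07, -0.09, -0.09 and -0.18.

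Amino acid transporters did include genes that rose in heart, 3 of 10 measured, with none lower, against 1.11% of all genes higher. Slc7a5, the light chain of the large neutral amino acid exchanger, had 5.82, 6.13 and 7.05 on knockout and 3.94, 4.0 and 4.09 on wild-type arrays and rose by 2.32 ± 0.27. Slc3a2, its heavy chain, rose by 1.09 ± 0.14, and Slc38a1, a neutral amino acid carrier, rose by 2.27 ± 0.28. All 3 passed the test without knockout heart replicates 2 and 3 too.

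Of 18 regulators of the integrated stress response 7 rose in heart and none fell, against 1.11% of all genes higher. Atf4 rose by 0.89 ± 0.15 (adjusted p = 0.0006552), Atf5, a related transcription factor of the mitochondrial stress response, by 2.44 ± 0.20, Trib3, a pseudokinase that binds ATF4, by 2.22 ± 0.29, and Ddit3, which encodes the stress factor CHOP, by 1.04 ± 0.26 (adjusted p = 0.03067). Chac1, a glutathione-degrading enzyme, and Nupr1, a stress-induced nuclear protein, rose by 2.58 and 2.43. Without knockout heart replicates 2 and 3 the count was 3, Atf5, Trib3 and Nupr1, and Atf4 had 0.55 (adjusted p = 0.2295). Fgf21, a hormone released under mitochondrial stress, differed by 1.01 in heart (adjusted p = 0.05769), and Gdf15 was not analysed here. In liver, muscle and brain 0 of the 18 regulators were called, where 2.42%, 1.54% and 0.415% of all genes were. In testis 10 of the 18 rose and 1 fell, near the 56.2% of all genes called there, and Atf4 rose by 1.77. These counts were the same without wild-type testis replicate 3.

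**Figure D4:**
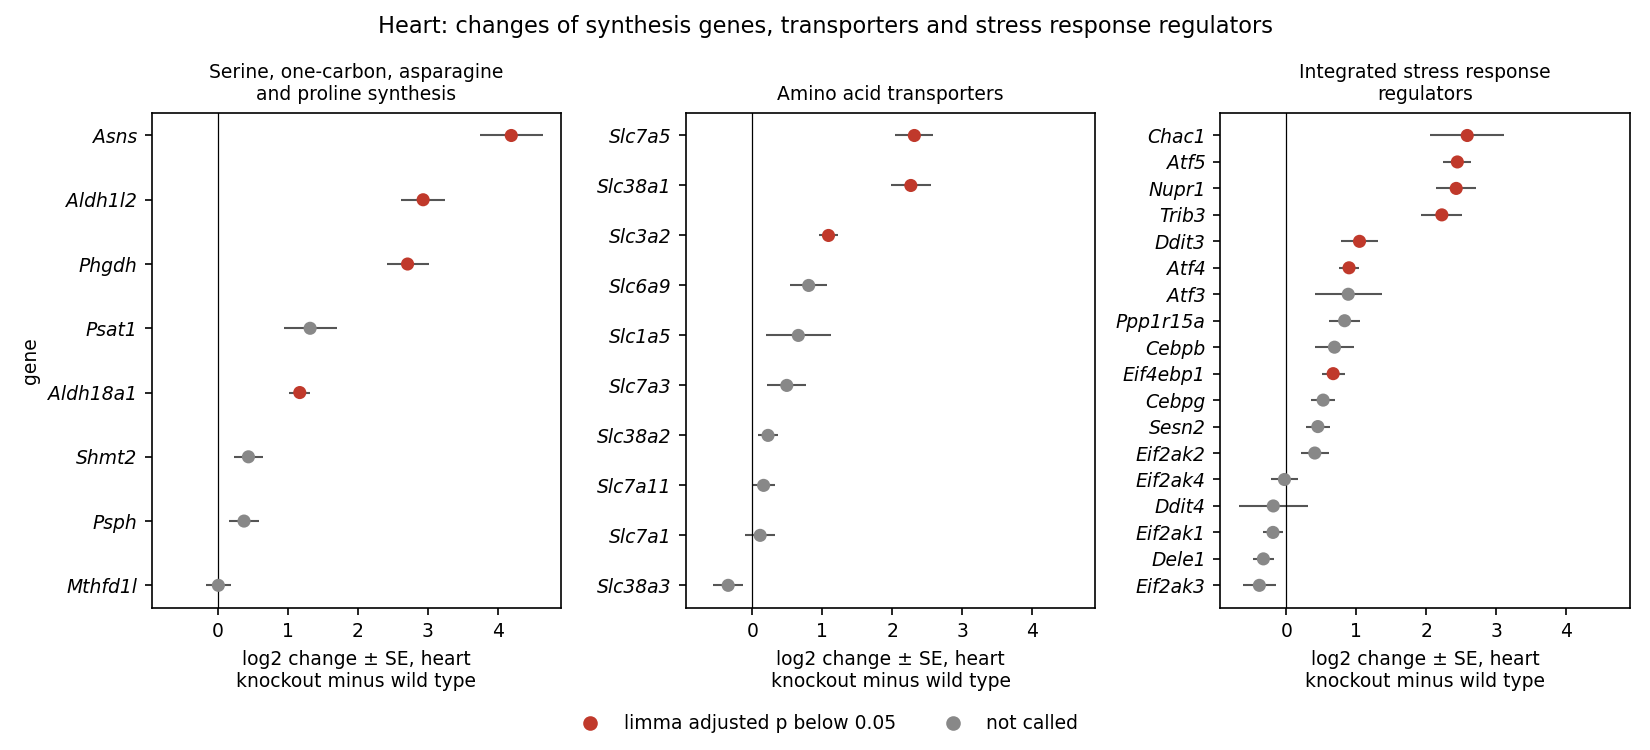
Log2 change between knockout and wild-type heart (horizontal axes) for the 8 synthesis genes, 10 amino acid transporters and 18 stress response regulators, with bars for the standard error from the fit on 3 arrays per genotype and red points for an adjusted p below 0.05. Asns has the largest change of the 8 synthesis genes at 4.19, and Slc7a5 and Chac1 have the largest of the other panels at 2.32 and 2.58.

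In muscle, where none of the 8 genes was called, 2 of 14 cytosolic and folate-cycle genes, 1 of 10 glycine and methyl group genes, 1 of 7 proline genes and 1 of 8 aspartate and glutamine genes rose, against 1.54% of all genes called. Shmt1, the cytosolic partner of Shmt2, rose by 0.77, Aldh1l1, the cytosolic counterpart of Aldh1l2, by 1.13, Gcat, which works in threonine breakdown to glycine, by 0.97, Aldh4a1, which works in proline breakdown, by 0.62 and Gpt, the alanine aminotransferase, by 0.84. Slc38a2, another neutral amino acid carrier, fell by 0.84 in muscle and rose by 0.66 in liver, the latter no longer called without wild-type liver replicate 3. Without wild-type muscle replicate 1, Gcat, Aldh4a1 and Slc38a2 passed the test. Shmt1 then differed by 0.64 (adjusted p = 0.2013), Aldh1l1 by 0.98 (adjusted p = 0.05288) and Gpt by 0.59 (adjusted p = 0.1593), in the same direction as with all arrays. None of the 8 synthesis genes was called in muscle without that array either. The 5 slow-fibre genes averaged 10.42 to 10.89 on knockout and 4.36 to 7.93 on wild-type muscle arrays, and their part in these differences was not tested. The 3 adipocyte markers averaged 3.46 to 6.97 on knockout and 5.23 to 7.02 on wild-type muscle arrays. Their part was not tested either.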

How the data were processed

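The deposited table holds 1 log2 value for every probe set and array, obtained by the authors with RMA in R 2.14.0 per the submitters' processing notes. Whether all 30 arrays went through RMA together was not given in the sources used here. No further normalization was applied. Of 45141 probe sets 28898 carried exactly 1 gene symbol in the supplied probe table, 551 several and 15692 none. Of several probe sets carrying only 1 and the same symbol, that with the highest 30-array mean stood for the gene (17097 genes).

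The 10 group means were estimated together in limma 3.58.1 under R 4.3.3 (20 residual degrees of freedom, default prior). Two-sided p-values were adjusted by Benjamini-Hochberg over all genes of a contrast, with a threshold of 0.05. Effects of the knockout were estimated per tissue, as the mean over 4 tissues without testis, as differences between tissues, and beside them the differences between wild-type tissues. The 3 arrays per group limit the precision. The fit was tested on simulated data.

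The genes and lists were chosen with earlier results of these data known. All members are named, called or not. Of each other list up to 4 called genes with the largest change are named, and Atf4, Atf5, Ddit3, Trib3, Fgf21 and Gdf15 in any case. Adipocyte genes outside the marker list, Car3 and Lep among them, were chosen after their values were seen. Promoter windows were matched to genes by symbol.

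The alternatives were each tissue fitted alone, a replicate block, a random block across tissues, another prior, quantile normalization, median centring, a filter on dim genes, another probe set rule and each array left out in turn. Leaving out 2 knockout heart arrays together was added after seeing the data. Correlations of deviations between same-numbered knockout and wild-type arrays ranged from -0.277 to 0.399 and exceeded 0.1 for 4 of 15 pairs, so the replicate numbers were not taken to pair the samples.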

Additional observations from a re-analysis of the deposited data

Results flagged for a closer look

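The effects of the knockout differed between tissues for several genes. The moderated F test among the 4 tissues without testis gave adjusted p of 5.147e-05 for Asns, 0.0001333 for Phgdh, 0.0004032 for Aldh1l2 and 0.001879 for Aldh18a1. The heart effect minus the mean of the other 3 was 4.64 for Asns, 2.83 for Phgdh, 2.76 for Aldh1l2 and 1.14 for Aldh18a1. The liver effect minus the mean of the other 3 was -2.43 for Asns and -1.54 for Phgdh. The testis effect minus the mean of the 4 others was -1.61 for Asns, 1.93 for Psat1, 0.71 for Mthfd1l and -0.93 for Aldh1l2.

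A signal also appeared outside the comparisons, on the 2 probe sets assigned to both Gsn and Mthfd2, which differed in heart by 4.34 and 5.14 on the log2 scale. With 3 arrays in every group, no array was tested as standing apart from its group.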

How the results depend on the processing

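A second quantile normalization, median centring, a trended robust prior and a random block across tissues changed no count by more than 1.5 times and no call of the 8 genes. With each tissue fitted alone, heart called 2 of the 8 genes and 83 of all genes, liver 31, muscle 15 and brain 25 of all genes. With the replicate number as a block, heart called the 4 genes again, and the counts of all genes were 137 in muscle and 41 in brain, while the liver effect differed for 1 gene of the 8 and the call of Aldh18a1 over the mean of 4 tissues ended (adjusted p = 0.05287). Restricted to the 8548 genes above the median level, 5 of the 8 were tested, of which 1 was called in testis, 2 in heart and 1 over the mean of 4 tissues, and 2 each in the F test among tissues, in testis against the others and in heart against the others. All genes called were then 6393 in testis and 46 in brain. With the probe set of largest interquartile range, Phgdh in testis reversed to -0.84 (adjusted p = 0.01832), and the liver effect differed for 1 gene, while the calls of Aldh18a1 in testis (0.23) and Phgdh over the mean of 4 tissues (0.45) ended. Without knockout heart replicates 2 and 3, heart called 145 genes in all, 1 of the 8 over the mean of 4 tissues and 2 in the F test.

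With each array left out in turn, the 8 genes gave 3 to 4 calls in testis, 0 to 1 in liver, 0 in muscle and brain, 4 to 5 in heart, 3 to 4 over the mean of 4 tissues, 4 to 5 in the F test and 7 in the wild-type F test. The effect differed from the other tissues for 4 to 5 genes in testis, 0 to 2 in liver, 0 to 1 in muscle, 0 in brain and 4 to 5 in heart, and 9 to 13 neighbouring wild-type pairs differed. All genes called ranged from 8937 to 9741 in testis, 293 to 467 in liver, 125 to 315 in muscle, 34 to 158 in brain, 198 to 789 in heart and 470 to 801 over the mean. The highest heart counts came without knockout replicate 1. Signal near the array medians limits Aldh18a1, Mthfd1l and Aldh1l2 in most tissues. It also limits Asns in wild-type heart and muscle (3.85 and 3.86). The same holds for Psat1 in wild-type liver, heart and muscle (2.90, 3.68 and 3.77).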

Other observations

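For each of the 8 genes, the gene of mean log2 level at least 6 with the most similar pattern was sought over the 24 arrays of liver, muscle, brain and heart, with each array taken as its deviation from the wild-type mean of its tissue. Iars and Sars, which encode the isoleucine and serine transfer RNA synthetases, were most like Asns (r = 0.902) and Aldh1l2 (r = 0.91). Phgdh was most like Asns (r = 0.938) and Aldh18a1 most like Atf5 (r = 0.946). Psat1 was most like Car3 (r = 0.88), the adipocyte enzyme that was high on the same 2 heart arrays. Without the 3 knockout heart arrays, these 5 values were 0.438, 0.435, 0.561, 0.309 and 0.247 over 21 arrays, so they rest largely on knockout heart. Psph was most like Ssr4 (r = 0.863, and 0.768 without those arrays), Shmt2 most like Cdk5rap3 (0.786 and 0.833) and Mthfd1l most like Bub3 (0.704 and 0.681). The values are descriptions over arrays that share tissue and genotype, and no test was made of them.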
